A study of Mus musculus with 16 samples.

Results

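The genes described are the mouse voltage-gated ion channel genes and their relatives that were measurable in 16 whole xenograft tumours. Members are symbols that begin with Kcn, Cacn or Scn and a digit, that have a number in all 16 libraries, and that reach a CPM of 0.5 (CPM is a gene's count scaled by the library's total count) in at least 4 libraries. Of 24681 listed symbols, 23354 have a value in every library. In the whole list 123 match these names, of which 97 are members, 24 lie under the minimum, and 2, Kcna4 and Kcnmb3, carry no value in the 8 panobinostat-treated libraries. The rule chose members by their level, so levels are given as a description. The members nearest the minimum were Kcna6 and Cacng2, whose 4th highest libraries held 0.545 and 0.544 CPM. Just outside it lay Kcnh4 and Kcnj9, at 0.499 and 0.494 CPM.

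AU565(pv), a human HER2-positive breast cancer cell line, was injected into mammary fat pads. The hosts were SCID mice, a strain without mature B or T cells that keeps macrophages, neutrophils and natural killer cells. Each group held 4 mice and each library came from 1 mouse, which also gives the library its number. All injections were intraperitoneal and all tumours were taken on day 2. Vehicle mice (3, 6, 21 and 29) received D5W on days 0 and 1 and PBS on day 0. Trastuzumab mice (12, 15, 20 and 24) received the HER2 antibody trastuzumab at 10 mg/kg with D5W on days 0 and 1. Panobinostat mice (4, 7, 8 and 13) received the histone deacetylase inhibitor panobinostat at 15 mg/kg on days 0 and 1 with PBS on day 0. Combination mice (2, 11, 16 and 22) received both drugs at these doses. The labels place the trastuzumab dose on day 0 in one text and on day 1 in another. The animals' age is not given in the sources used here. Counts are of mouse genes in tumours that also hold human cells, so they were read as mainly those of the host tissue, and the share of human reads in them was not measured. In whole tumours, fewer cells of a type and less RNA per cell cannot be told apart.

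Voltage-gated channels open a pore for potassium, calcium or sodium ions when the membrane potential changes. A pore-forming alpha subunit senses the voltage, and auxiliary subunits set how much of it reaches the membrane and how it opens and closes. They are best known from nerve and muscle, where they make and shape action potentials, but fibroblasts, macrophages, epithelium and fat cells carry some of them too. The name pattern also takes in channels that are not gated by voltage in the strict sense. These are the inward rectifiers (Kcnj), the two-pore leak channels (Kcnk), the calcium-activated channels of small and intermediate conductance (Kcnn) and the sodium-sensing channel Scn7a.

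By role, the 97 members comprised 29 alpha subunits of voltage-gated potassium (Kv) channels, 10 auxiliary Kv subunits, 10 calcium channel alpha1 subunits and 11 calcium channel auxiliary subunits. The rest were 8 genes of calcium- or sodium-activated potassium channels, 9 inward rectifiers, 7 two-pore channels, 8 sodium channel alpha subunits, 4 sodium channel beta subunits and the regulator Kcnrg. Of these, 70 passed the filter on low counts and were tested for treatment. The 27 others, among them Kcnmb1, Cacna1s, Cacna1e, Kcnn2 and Kcnn3, had means of 0.321 to 1.30 CPM over the 16 libraries.

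Library totals ran from 4848244 to 8140782 counts, of which 4678 to 6260 fell in member genes. Replicates of a group differed by more than counting noise: chi-square divided by its degrees of freedom was 4.32 to 37.0 over the pairs. Member counts summed to 701 CPM in combination 22 and to 719 CPM in vehicle 6, below the 844 to 1080 CPM of the other 14 libraries. The members in which they were lowest are given further on.

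Per kilobase of exon, Cacnb3 led the members. This gene, the cytoplasmic beta3 subunit of high-voltage-activated calcium channels, averaged 39.7 ± 7.96 CPM per kb (SD, n = 16). Scn7a, a sodium-sensing relative of the sodium channel alpha subunits, stood at 14.7 ± 3.60 CPM per kb. Its range of 10.3 to 19.9 CPM per kb lay below the lowest value of Cacnb3, 24.2 CPM per kb. Also among the 5 highest were Kcnh3, an ether-a-go-go-like potassium channel of brain, at 7.27 ± 1.92 and Kcnab2, a Kv beta subunit, at 5.95 ± 0.768 CPM per kb. Their ranges of 3.74 (vehicle 6) to 10.4 and 4.50 to 7.45 CPM per kb overlapped. These neighbours were not compared within each library, so whether they differ was not tested. All members below the 5 highest lay at or below a mean of 4.98 CPM per kb, and the median member stood at 0.563 CPM per kb. These are length-scaled levels, and human reads in conserved exons could add to them.

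The defining pore subunits of skeletal muscle were low. Cacna1s, the alpha1 subunit of the muscle calcium channel, ranged from 0 to 1.38 CPM, and Scn4a, the muscle sodium channel, from 0.803 (vehicle 6) to 3.42 CPM. Some auxiliary calcium channel subunits were higher, with means of 20.1 CPM for Cacnb1 and 27.1 CPM for Cacna2d1. The 20 listed skeletal muscle markers summed to between 478 CPM (a combination library) and 1060 CPM (a vehicle library). Only 10 of these 20 passed the filter on low counts, and a few genes can make up most of such a sum. The sum therefore cannot show whether the low pore genes reflect muscle content. Kcnmb1, the smooth muscle subunit of the large-conductance calcium-activated potassium channel, ranged from 0 to 1.46 CPM, while the pore gene of that channel, Kcnma1, ranged from 15.1 to 33.3 CPM outside vehicle 6 (11.2) and combination 22 (10.4). Cacna1c, the calcium channel of heart and smooth muscle, held 2.02 (combination 22) to 7.46 CPM. Among calcium channel pores the level of Cacna1g, a T-type channel that opens near rest, ranged from 20.3 to 32.3 CPM outside vehicle 6 (17.5) and combination 22 (15.3). The level of Cacna1d, an L-type channel of endocrine and neural cells, ranged from 13.8 (combination 22) to 26.2 CPM.

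The effect of panobinostat on these genes was first taken over both backgrounds, as the mean of the difference with and without trastuzumab. Cacng7 and Kcnh2 were among the members that rose, and no tested member fell. In all, 3 of 70 tested members were higher, against 2.08% of all 15610 tested genes higher (324 genes), 0.942% lower and 3.02% in either direction. Over the members 46 changes were positive and 24 negative, with a median log2 change of 0.07, against -0.0019 over all tested genes. Against vehicle, panobinostat gave 44 positive and 26 negative changes (median 0.13), and added to trastuzumab it gave 33 and 37 (median -0.0098). Trastuzumab against vehicle gave 52 positive and 18 negative (median 0.10, against 0.0017 over all genes). Added to panobinostat, trastuzumab gave 29 positive and 41 negative (median -0.046). Each drug alone against vehicle thus leaned positive, and neither did when added to the other drug. Both comparisons against vehicle share the vehicle libraries and are not independent. In the averaged effect 7 of 70 members had an unadjusted p under 0.05, against 13.5% of all genes. All adjusted p-values come from edgeR's quasi-likelihood test with Benjamini-Hochberg adjustment over the 15610 genes, and a gene is said to have risen or fallen where this is under 0.05.

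**Figure D1:**
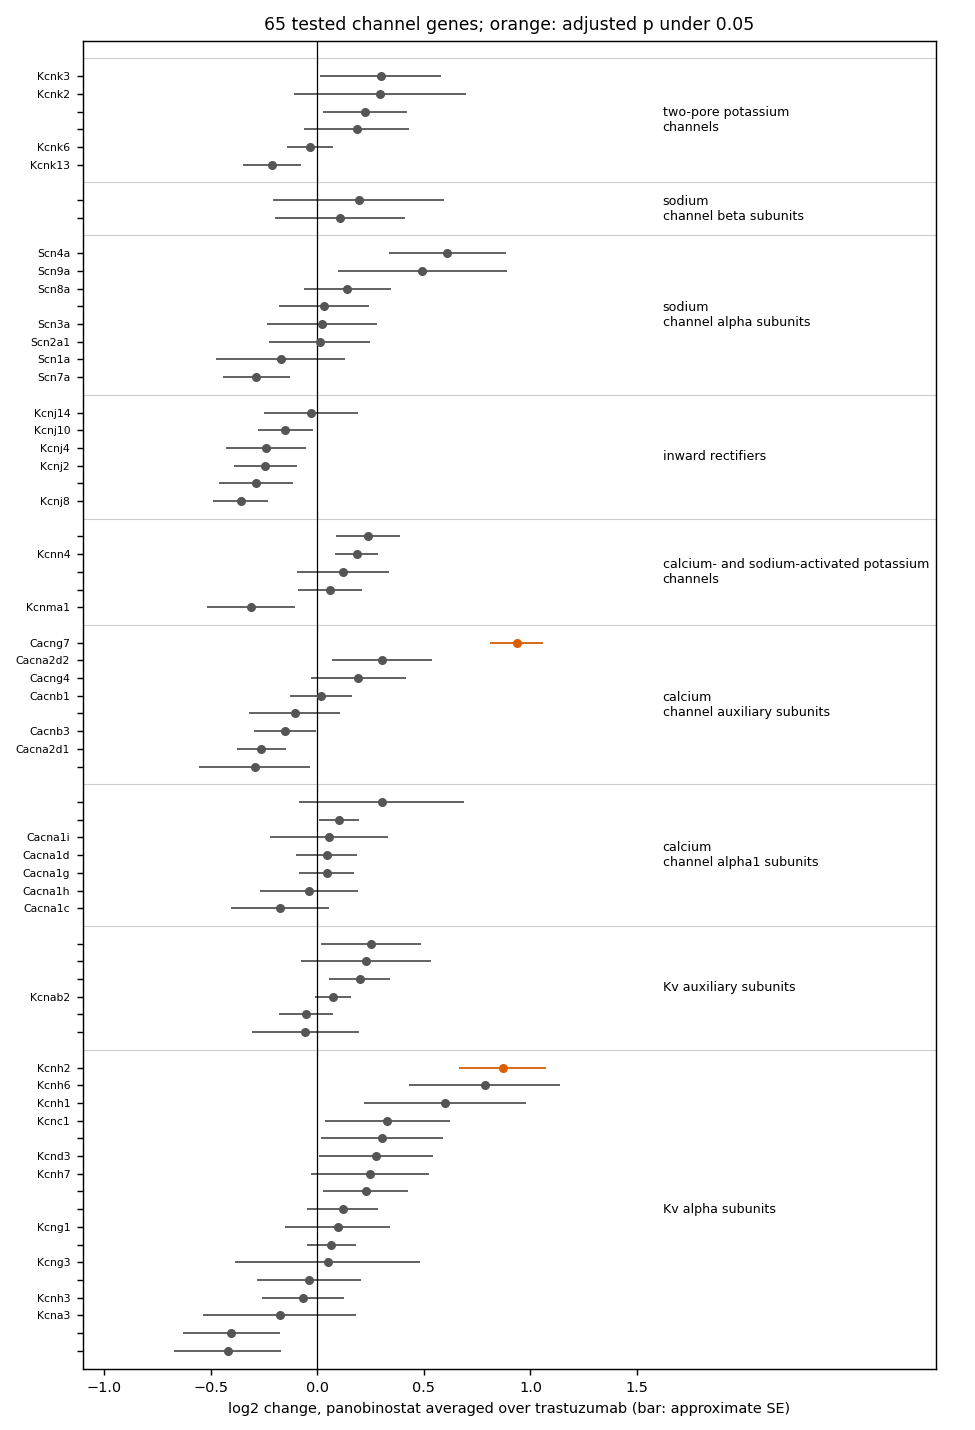
Log2 change with panobinostat averaged over both trastuzumab backgrounds (x axis) for 65 of the 70 tested channel genes (y axis, labelled where the text names them), grouped by subunit role, with bars for the approximate standard error. The 2 orange points, Kcnh2 and Cacng7, are past the threshold and lie at 0.87 and 0.93; all 6 inward rectifiers lie below 0 and none is past it.

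Cacng7 encodes gamma7, a transmembrane protein of the calcium channel gamma family that also acts as an auxiliary subunit of AMPA-type glutamate receptors. Its gene lies at chr7:3332955-3368221 on the plus strand (mm10, GENCODE vM21), and none of its exon bases is shared with another annotated gene. Scaled CPM (by the trimmed mean of M-values, TMM) were 7.43, 8.19, 8.67 and 7.69 in vehicle mice 3, 6, 21 and 29. With trastuzumab they were 6.99, 6.95, 6.25 and 5.74 in mice 12, 15, 20 and 24. Panobinostat mice 4, 7, 8 and 13 held 12.8, 18.3, 11.8 and 18.3 CPM. Combination mice 2, 11, 16 and 22 held 12.4, 10.0, 15.4 and 12.01 CPM. Every library given panobinostat was above every library without it. Cacng7 was the 1 member whose 8 libraries with panobinostat did not overlap the 8 without it, and 0.557% of all tested genes were separated in the same direction. Means were 7.24 ± 0.969 CPM without and 13.9 ± 3.12 CPM with panobinostat (SD, n = 8 each). The averaged log2 change was 0.93 (SE 0.12, edgeR adjusted p = 0.000707).

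The promoter of Cacng7 is shown because it is the member with the smallest adjusted p, beside those of Kcnh2 and Kcnn4, described below; RefSeq (GRCm38.p6) sequence was used. Each window runs from 250 bases before to 50 bases after the annotated start, 5′ to 3′ along the gene's strand. Capitals mark GGGCGG, the GC box, or its reverse complement CCGCCC. The windows are chr7:3332575-3332874 on the plus strand for Cacng7, chr5:24329542-24329841 on the minus strand for Kcnh2, a start inside the gene's GENCODE span, and chr7:24370013-24370312 on the plus strand for Kcnn4.
Cacng7: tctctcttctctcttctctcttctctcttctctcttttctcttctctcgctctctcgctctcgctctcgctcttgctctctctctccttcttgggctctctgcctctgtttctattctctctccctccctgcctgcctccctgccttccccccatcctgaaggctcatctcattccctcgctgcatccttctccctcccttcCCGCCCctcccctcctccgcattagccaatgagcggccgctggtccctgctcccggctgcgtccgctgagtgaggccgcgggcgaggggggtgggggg
Kcnh2: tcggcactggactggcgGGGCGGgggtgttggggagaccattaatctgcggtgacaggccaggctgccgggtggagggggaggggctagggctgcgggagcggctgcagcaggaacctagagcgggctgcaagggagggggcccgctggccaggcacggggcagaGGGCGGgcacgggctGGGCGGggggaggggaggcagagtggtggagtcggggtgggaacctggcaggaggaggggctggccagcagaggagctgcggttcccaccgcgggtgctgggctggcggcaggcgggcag
Kcnn4: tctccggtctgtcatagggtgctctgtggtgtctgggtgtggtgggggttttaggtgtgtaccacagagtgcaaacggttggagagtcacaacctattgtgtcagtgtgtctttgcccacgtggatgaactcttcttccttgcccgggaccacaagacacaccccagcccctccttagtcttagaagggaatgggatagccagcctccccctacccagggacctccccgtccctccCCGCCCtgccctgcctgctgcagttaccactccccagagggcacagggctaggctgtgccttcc
The Cacng7 and Kcnn4 windows each held 1 match and the Kcnh2 window 3. On either strand, the motif was found in 35.7% of 32851 mouse promoter windows of this length and in 47.1% of 102 windows of 71 members. CpG pairs numbered 15, 19 and 6 in the windows of Cacng7, Kcnh2 and Kcnn4, against a median of 7 over all windows. A match describes the letters only.

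Kcnh2 encodes Kv11.1 (ERG), the channel that carries the rapid repolarising current of the heart. It lies at chr5:24319589-24351604 on the minus strand (mm10). The vehicle values for mice 3, 6, 21 and 29 were 4.21, 1.93, 4.16 and 3.23 CPM. The trastuzumab values for mice 12, 15, 20 and 24 were 3.01, 4.89, 3.12 and 3.13 CPM. Panobinostat mice 4, 7, 8 and 13 had 8.71, 4.37, 5.36 and 5.07 CPM. In the combination, mice 2, 11, 16 and 22 had 6.46, 8.57, 7.79 and 4.55 CPM. The groups met only through trastuzumab 15, which lay above panobinostat 7 and combination 22. The averaged log2 change was 0.87 (SE 0.20, edgeR adjusted p = 0.0261). Leaving out vehicle 6, vehicle 29, trastuzumab 20, trastuzumab 24, panobinostat 4 or combination 11 ended this call, with adjusted p up to 0.0640, while Cacng7 passed in all 16 such fits. Kcnh6 and Kcnh1, other members of the ether-a-go-go family, had log2 changes of 0.78 and 0.60 and did not pass (edgeR adjusted p = 0.338 and 0.559). Kcnh7 and Kcnh3 of the same family had 0.25 and -0.07 and did not pass either. Kcnh6 was low, at 0.161 to 1.74 CPM without panobinostat and 0.807 to 2.47 CPM with it. The low-count filter can keep such a gene through the panobinostat libraries alone, so its change adds no support to that of Kcnh2.

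**Figure D2:**
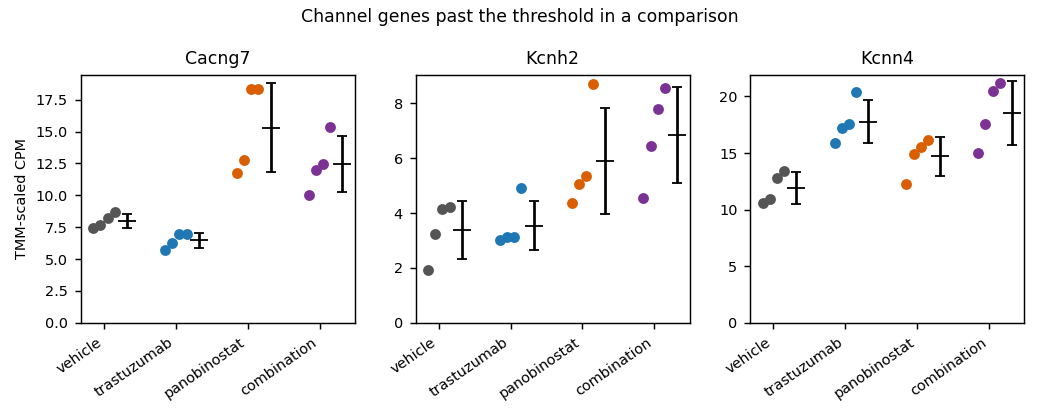
TMM-scaled CPM (y axis, from 0) of Cacng7, Kcnh2 and Kcnn4, each past the threshold in at least 1 comparison, by group (x axis), with 1 point per mouse and the mean with its SD (n = 4) beside the points. Cacng7 lies at 10.0 to 18.3 in the 8 libraries with panobinostat and at 5.74 to 8.67 in the 8 without; Kcnn4 is above the vehicle range in every library with trastuzumab.

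Of the 21 tested Kv alpha subunits 16 had a positive averaged change, with a family median log2 change of 0.25, and 2 passed, Kcnh2 among them. Panobinostat gave 17 positive changes against vehicle (median 0.32) and 12 on top of trastuzumab (median 0.01). With trastuzumab against vehicle 20 of the 21 were positive (median 0.18), and with trastuzumab added to panobinostat 6 were (median -0.09). Both comparisons against vehicle share the vehicle libraries, so they are not independent. The averaged panobinostat change of Kcna3 (Kv1.3, known from lymphocytes and macrophages) was -0.18 and that of Kcnh3 -0.07. Among the 6 Kv auxiliary genes the median was 0.14 and Kcnab2 had 0.07. The 6 inward rectifiers all had negative changes, with a median of -0.24, and none passed. Kcnj8, the pore of the vascular ATP-sensitive potassium channel and a pericyte marker, averaged 9.53 ± 1.36 CPM with vehicle, 8.89 ± 1.68 with trastuzumab, 6.29 ± 0.977 with panobinostat and 8.10 ± 1.38 with the combination (SD, n = 4 each). Its averaged log2 change was -0.36 (SE 0.13, edgeR adjusted p = 0.183). Kcnj2 (Kir2.1), which sets the resting potential in muscle and macrophages, had -0.24, and Kcnj10 (Kir4.1), the potassium-buffering channel of glia, had -0.15.

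No calcium channel gene other than Cacng7 passed. The 7 tested alpha1 subunits had a median log2 change of 0.04, with Cacna1c at -0.18, Cacna1d at 0.04 and Cacna1h, a T-type channel, at -0.04. Of the 8 tested auxiliary genes, Cacna2d1, the gabapentin-binding alpha2delta1 subunit, had -0.26 (edgeR adjusted p = 0.313) and Cacnb3 -0.15 (adjusted p = 0.749). Sodium channel alpha subunits had a median of 0.03, with Scn4a at 0.61, Scn9a, the channel of pain-sensing neurons, at 0.49 (0.14 without combination 16) and Scn7a at -0.29, and none of the 8 passed. The 6 two-pore channels had a median of 0.21, with Kcnk6 at -0.04 and Kcnk13, the microglial channel THIK-1, at -0.21. Kcnma1 had -0.31, and the 5 calcium- or sodium-activated genes a median of 0.12.

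Within single backgrounds fewer genes passed, both among the members and over the table. Panobinostat against vehicle raised Cacng7 by 0.94 (SE 0.17, edgeR adjusted p = 0.0384), 1 of 70 members. Of all tested genes 0.141% rose and 0.0512% fell, 0.192% in all, and at an unadjusted p under 0.05 the shares were 6 of 70 members and 8.1% of all genes. Panobinostat added to trastuzumab raised it by 0.93 (SE 0.18, edgeR adjusted p = 0.0344), again 1 of 70. Here 0.468% of all genes rose and 0.16% fell, 0.628% in all, with 4 of 70 members and 9.26% of all genes at an unadjusted p under 0.05. Kcnh2 did not pass in either of these comparisons, with edgeR log2 changes of 0.80 against vehicle (adjusted p = 0.401) and of 0.94 on top of trastuzumab (adjusted p = 0.190). The call of Cacng7 against vehicle was lost in 11 of the 16 fits that each left out a library: every vehicle library, trastuzumab 12, 15 and 20, panobinostat 4, 7 and 13, and combination 2, with adjusted p up to 0.132. On top of trastuzumab it was lost without trastuzumab 15, 20 or 24 and without combination 11 or 22, with adjusted p up to 0.126. Both calls also ended with limma voom (edgeR's filter kept; adjusted p = 0.0612 and 0.0597), with only the 2 groups compared in the edgeR fit (0.0695 and 0.155) and without vehicle 6 and combination 22 (0.0621 and 0.0707). Both of these comparisons share libraries with the averaged effect and are not independent of it.

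In the combination against vehicle, Kcnn4 rose, 1 of 70 members, against 1.7% of all genes higher and 2.2% called in either direction. At an unadjusted p under 0.05 there were 8 of 70 members and 13.8% of all genes. Kcnn4 encodes KCa3.1, the intermediate-conductance calcium-activated potassium channel of red cells, lymphocytes, macrophages and secretory epithelium. Its gene lies at chr7:24370263-24386690 on the plus strand (mm10). Vehicle mice 3, 6, 21 and 29 held 13.4, 10.9, 10.6 and 12.8 CPM. Combination mice 2, 11, 16 and 22 held 21.1, 17.6, 20.5 and 15.0 CPM. These groups did not overlap, and the log2 change was 0.64 (SE 0.14, edgeR adjusted p = 0.0237). Leaving out vehicle 6, vehicle 21 or combination 2 ended the call, with adjusted p up to 0.0737, as did an edgeR fit of these 2 groups alone (adjusted p = 0.0993). Without both vehicle 6 and combination 22 2 members passed, Kcnn4 among them.

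Kcnn4 was also high with trastuzumab alone. Mice 12, 15, 20 and 24 held 15.9, 17.5, 20.4 and 17.2 CPM, all above the vehicle range. Panobinostat mice 4, 7, 8 and 13 held 16.2, 12.3, 15.5 and 14.9 CPM, which overlapped the vehicle range through mouse 7. The log2 change with trastuzumab alone was 0.57 (SE 0.14, edgeR adjusted p = 0.537) and did not pass. Averaged over both backgrounds, trastuzumab gave 0.45 (SE 0.10, edgeR adjusted p = 0.138). Panobinostat alone gave 0.30 (edgeR adjusted p = 0.620).

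The macrophage markers, from a cell type known to carry Kcnn4, summed to 8457 to 11652 CPM with vehicle and 8769 to 11724 CPM with the combination. In the combination against vehicle 1 of 11 tested macrophage markers rose, Fcgr1. The 11 natural killer and lymphoid markers in the table summed to 20.98 to 37.4 CPM with vehicle and 44.7 to 120 CPM with the combination, and 2 of the 8 tested rose, Gzmb by 2.65 and Klrk1 by 1.97 on the log2 scale. Luminal epithelial markers summed to 669 to 939 CPM with vehicle and 729 to 1130 CPM with the combination. Of the 10 tested, 8 had positive changes, with a median log2 change of 0.59, and none passed. All 5 tested erythroid markers fell, with a median log2 change of -2.49, and summed to 310 to 1125 CPM with vehicle and 78.1 to 120 CPM with the combination. Of 7 tested neutrophil markers 3 fell, S100a8 (-1.85), S100a9 (-1.96) and Cxcr2 (-0.71), and Fpr2 rose (1.56). The 8 listed neutrophil markers summed to 144 to 208 CPM with vehicle and 111 to 133 CPM with the combination. The part of these cells in the Kcnn4 result was not tested.

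No channel gene passed for trastuzumab by edgeR. Against vehicle 0 of 70 members and 0.0% of all genes passed. An unadjusted p under 0.05 was reached by 4 members and 3.52% of all genes, and neither DESeq2 nor limma voom called a member. Added to panobinostat, trastuzumab again gave 0 of 70 and 0.0%, with 3 members and 4.48% of genes at an unadjusted p under 0.05 and none called by DESeq2 or limma voom. Averaged over panobinostat, 0 of 70 members and 0.147% of genes passed, with 4 members and 5.94% of genes at an unadjusted p under 0.05. In that comparison limma voom called no member and DESeq2 called 1, Kcnn4. No member separated the 8 libraries with trastuzumab from the 8 without, which 0.0448% of genes did in the higher direction. The test of the interaction, whether the effect of the 2 drugs together departs from the sum of their effects on the log2 scale, passed for 0 of 70 members and 0.0% of genes. Kcnd3 alone had an unadjusted p under 0.05 there, against 1.79% of genes, and DESeq2 and limma voom called none. The lowest libraries of Kcnd3 were vehicle 6 (0.482 CPM) and combination 22 (1.01 CPM), against 1.23 CPM or more in the others. The groups of these libraries enter the interaction with the same sign. For Cacng7 the interaction was -0.01 and for Kcnn4 it was -0.24.

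Markers of other cell types moved with panobinostat beside the channel genes. Of 16 listed neuronal markers 8 were tested. All 8 had positive averaged changes, with a median log2 change of 0.81. The 5 that rose were Vgf (3.15), Snap25 (1.33), Syp (0.97), Stmn2 (0.88) and Unc13a (0.74), genes of secretory granules, synaptic vesicles and growing axons. Snap25 held 0.615 to 2.92 CPM without panobinostat and 2.15 to 6.08 CPM with it. The low-count filter can keep such a gene through the panobinostat libraries alone. The shared sign of the 8 tested markers therefore partly depends on the filter. The 16 listed neuronal markers summed to 266 to 333 CPM with vehicle, 245 to 374 with trastuzumab, 355 to 448 with panobinostat and 290 to 447 with the combination, and no listed marker was at 0 in all libraries. Tubb3, which did not pass, held 211 to 369 CPM of these sums. Rbfox3, a marker of neuronal nuclei, was not tested and ranged from 0.274 to 1.42 CPM without and from 0.337 to 0.818 CPM with panobinostat. The 8 tested Schwann cell markers had a median of 0.03 and none passed. All 5 tested erythroid markers fell, with a median log2 change of -2.01, and summed to 241 to 1125 CPM without and 78.1 to 205 CPM with panobinostat. Of 7 tested neutrophil markers 4 fell, among them S100a8 (-1.37), S100a9 (-1.57) and Cxcr2 (-0.75), and Fpr2 rose (0.81). Neutrophil markers summed to 144 to 208 CPM with vehicle, 163 to 244 with trastuzumab, 120 to 153 with panobinostat and 111 to 133 with the combination. All 9 fibroblast markers had negative changes, with a median of -0.37, and 2 fell, Col1a2 (-0.58) and Fap (-0.49). The endothelial, macrophage and natural killer and lymphoid lists each held 1 marker that rose, with medians of 0.03, 0.08 and 0.21. The lists of skeletal muscle, smooth muscle and pericytes, adipocytes, luminal epithelium and basal epithelium held no call. The part of these cells in the rise of Cacng7 and Kcnh2 was not tested.

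Other ion channel families gave no call for panobinostat. None of 14 tested TRP channels, 11 store-operated and endoplasmic reticulum calcium channels, 14 chloride channels, 7 pacemaker and related channels, 3 epithelial and acid-sensing sodium channels or 7 purinergic and Piezo channels passed with edgeR. Their median log2 changes were 0.02, -0.06, 0.13, 0.02, 0.24 and -0.05. In the combination against vehicle these lists also held 0 calls.

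Single tumours also differed within their groups. Vehicle 6 and combination 22 were the 2 lowest of the 16 libraries in 19 of 70 tested members (27.1%) and in 10.3% of all tested genes. Among these members were Cacna1g, Cacna1h, Cacna1i, Cacna2d2, Cacnb1, Cacnb3, Cacng4, Kcnc1, Kcnd3, Kcng1, Kcng3, Kcnh3, Kcnj4, Kcnma1, Scn1a, Scn2a1, Scn8a and Scn9a. Cacnb3 had 96.9 CPM in vehicle 6 and 101 CPM in combination 22, against 125 to 204 CPM in the other 14. Cacna2d2, the alpha2delta2 subunit, stood at 5.78 and 7.46 CPM, against 13.7 to 25.7 CPM. Kcnh3 stood at 21.5 and 22.9 CPM, against 32.1 to 59.7 CPM. These 3 genes were taken from the members in which the 2 libraries are lowest, so the gap to the other 14 follows from that choice.

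The same 2 libraries were low for Erbb2, the mouse gene that corresponds to the human HER2 gene amplified in the tumour cells, at 86.8 and 82.1 CPM against 152 to 226 CPM in the others. For Krt8, a keratin of luminal epithelium, they held 356 and 248 CPM against 311 to 475 CPM, so only combination 22 stood outside that range. Erbb2, Krt8 and the 2 libraries were singled out after their values were seen, and the part of human reads or of epithelial content was not tested. Without both libraries, the averaged effect of panobinostat again gave 3 members, with Cacng7 and Kcnh2 among them.

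**Figure D3:**
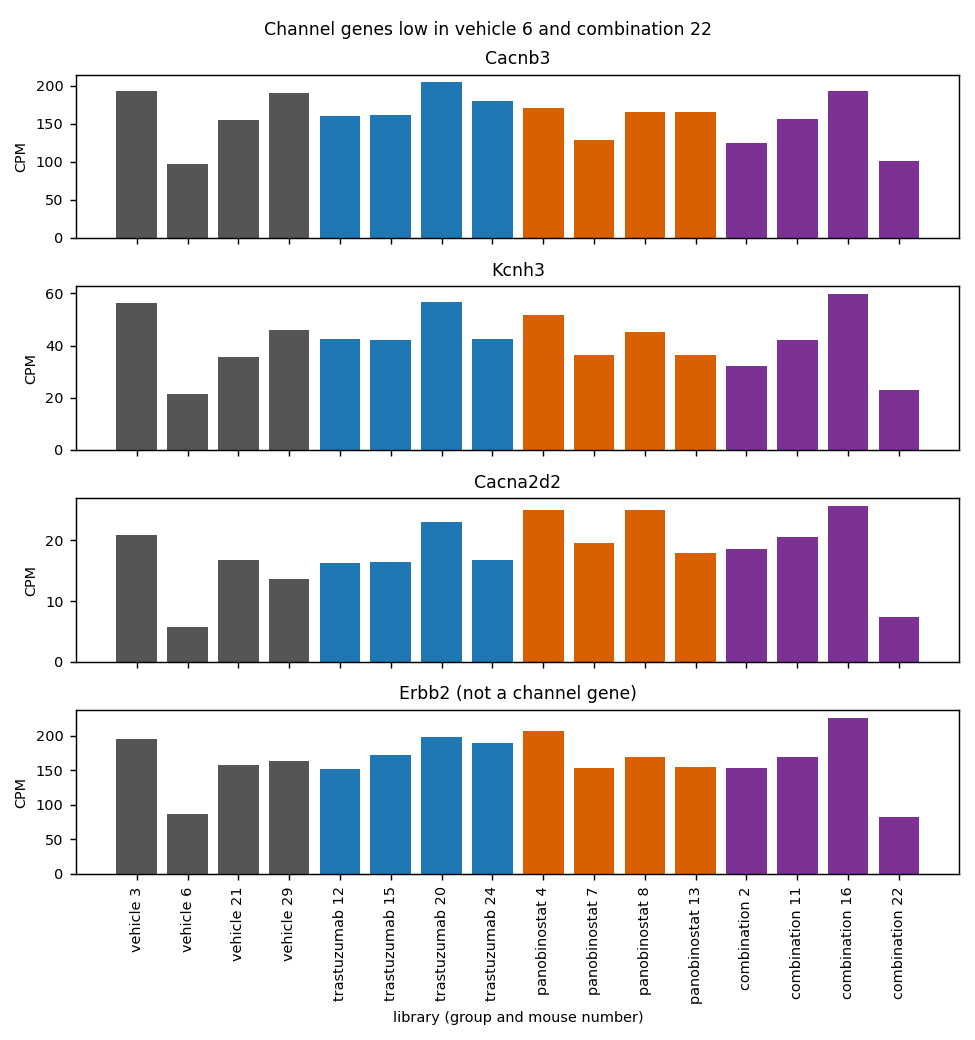
TMM-scaled CPM (y axis, from 0) of Cacnb3, Kcnh3, Cacna2d2 and the non-channel gene Erbb2 in each of the 16 libraries (x axis, coloured by group). Vehicle 6 and combination 22 are the lowest bars in each panel, with Cacnb3 at 96.9 and 101 against 125 to 204 in the others. The channel genes drawn were taken from those in which these libraries are lowest.

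**Figure D4:**
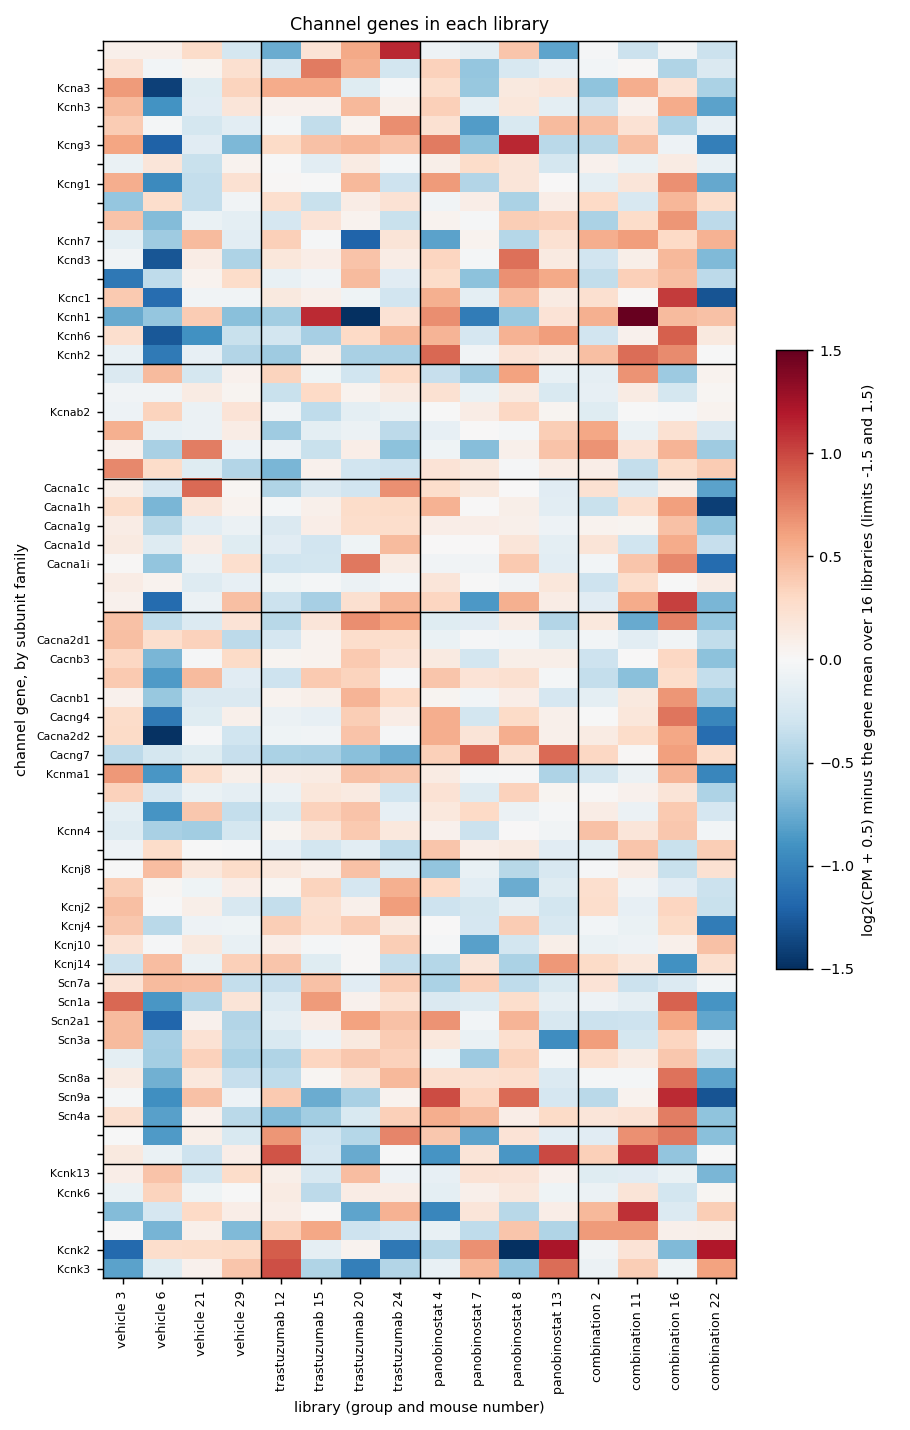
Log2(CPM + 0.5) of 65 of the 70 tested channel genes (y axis, by subunit role, labelled where the text names them) in the 16 libraries (x axis), each minus the gene's mean, with red for high, blue for low and the colour limited at both ends. Vehicle 6 and combination 22 show blue in the genes for which they are the 2 lowest libraries.

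Adipocyte markers varied between tumours of every group. The summed level of 10 adipocyte markers ran from 1672 to 6857 CPM with vehicle, 1556 to 8264 with trastuzumab, 1770 to 9063 with panobinostat and 2070 to 7037 with the combination, so the groups overlapped over most of their ranges. Correlations were computed for 70 members with 13 marker lists, 910 relations, with 100000 permutations each and Benjamini-Hochberg adjustment over the 910. Kcnk2 (TREK-1, a stretch-sensitive leak channel) ran from 1.07 CPM in panobinostat 8 to 10.5 CPM in panobinostat 13. It followed the adipocyte list with Pearson's r = 0.92 and Spearman's rho = 0.92 over 16 libraries (permutation p = 1e-05 and 2e-05, adjusted 0.00455 and 0.00607). The value 1e-05 is the smallest these permutations can give. Without the 2 libraries farthest from the median, r was 0.90, and it was 0.94 for deviations from the group means.

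Kcnj14 (r = 0.88) and Kcnk3 (TASK-1, r = 0.84) also rose with the adipocyte list, and Scn3a fell with it (r = -0.78). Spearman's rho for these was 0.88, 0.81 and -0.79. Permutation p-values for r were 2e-05, 0.00011 and 0.00021, adjusted to 0.00455, 0.0156 and 0.0167. Those for rho were 2e-05, 0.00031 and 0.00038, adjusted to 0.00607, 0.0403 and 0.0404. Without the 2 farthest libraries r was 0.85, 0.82 and -0.71. An absolute r of at least 0.783 with this list was reached by 6 of 70 members, 8.57%, and by 8.03% of all tested genes, so the members' share was near the background. This limit, like those for the fibroblast and luminal lists below, lies at the r of a member that passed. The members' shares are therefore counted at limits set by the members themselves.

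Scn7a followed the fibroblast list, with r = 0.86 and rho = 0.86 (permutation p = 2e-05 and 5e-05, adjusted 0.00455 and 0.0114), and r = 0.82 without the 2 farthest libraries. Its level ran from 75.5 CPM in panobinostat 4 to 146 CPM in vehicle 6, and r was 0.85 for deviations from the group means. An absolute r of 0.856 or more with the fibroblast list was reached by 0.224% of all tested genes. The fibroblast list summed to 17286 to 26601 CPM with vehicle, 14163 to 22540 with trastuzumab, 13222 to 20986 with panobinostat and 13598 to 16855 with the combination. The first of these ranges overlaps the next 2 and not the last. Kcnh7 (ERG3) followed the luminal epithelial list with r = 0.73 and rho = 0.84 (permutation p = 0.00108 and 0.00014, adjusted 0.0447 and 0.0255), and r = 0.66 without the 2 farthest libraries and 0.71 for deviations from the group means. An absolute r of at least 0.735 with that list was reached by 2 of 70 members, 2.86%, and by 1.82% of all tested genes. All 10 luminal markers had positive changes with trastuzumab averaged over panobinostat, with a median log2 change of 0.45, and none passed. Kcnh2 and the erythroid list also passed, but that list separates libraries with and without panobinostat, so only the correlation of deviations from group means is given, -0.29.

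**Figure D5:**
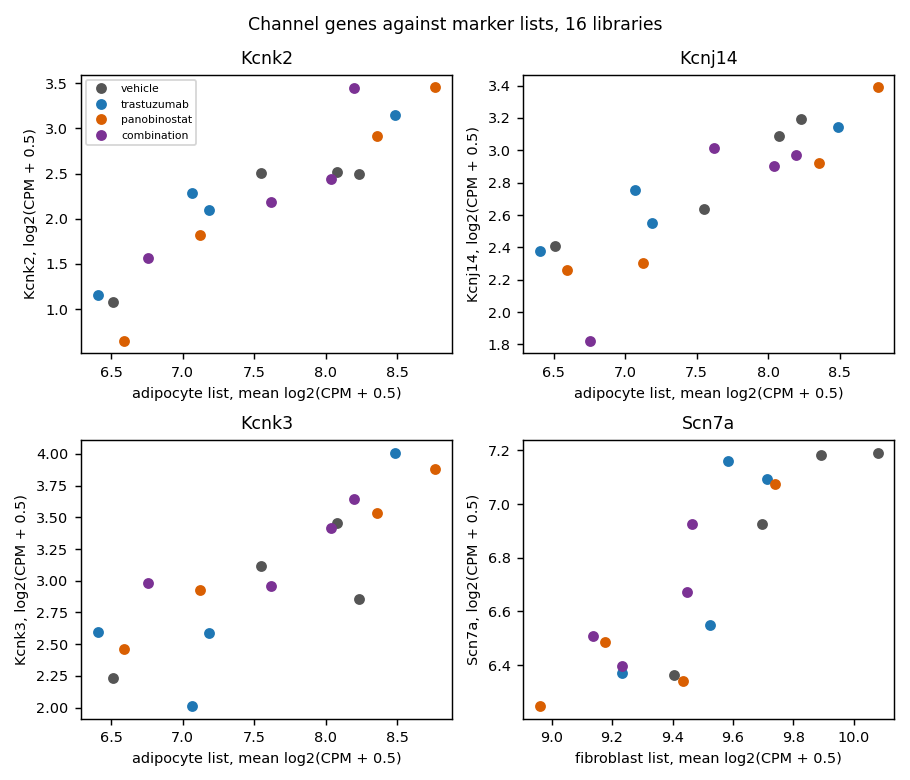
Log2(CPM + 0.5) of Kcnk2, Kcnj14 and Kcnk3 against the mean log2(CPM + 0.5) of the adipocyte list, and of Scn7a against that of the fibroblast list, with 1 point per library coloured by group. Points of every group lie along each slope, with r from 0.84 to 0.92 for the adipocyte panels and 0.86 for Scn7a.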

How the data were processed

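RNA of 16 whole tumours was sequenced and the authors deposited unnormalised counts of mouse genes. The authors used CASAVA 1.8.2, TopHat2, HTSeq and the build mm10, per the submitters' processing notes; their settings, annotation release and handling of human reads were not stated there. Per the labels' protocols the library kit does not mark strand, so reads of overlapping genes on opposite strands cannot be told apart, and 15 members share over 5% of exon bases with another gene. A panobinostat-treated library has no value for 1327 of the 24681 symbols, and these were left out. Every listed symbol has a count in at least 1 library without panobinostat, so a gene seen only with panobinostat could not be found.

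The deposited counts were scaled by TMM and tested with edgeR 4.0.16 (R 4.3.3; filterByExpr, quasi-likelihood F test, all 16 libraries, 1 mean per group), with Benjamini-Hochberg adjustment over 15610 genes and a threshold of 0.05. Standard errors are the log2 change over the root of F and are approximate. The common biological coefficient of variation was 0.183. Alternatives were DESeq2 1.42.0, its size factors, limma 3.58.1 voom, no filter, the compared groups alone and leaving out each library; 2 more were chosen after seeing the data. Levels per kb use GENCODE vM21 exon lengths, matched for 97 of 97 members. Library totals of 4848244 to 8140782 counts set the precision: 1 CPM is 5 to 8 reads.

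Members, lists and tests were chosen with earlier results of these data known. Genes named are members called in a comparison, the 5 highest per kb, the 2 on either side of the level minimum, and a list of channel genes known from muscle, vessels, macrophages and nerve; further genes were named after their values were seen. Some members enter the counts and medians and are not reported here by name. No sample is paired with another.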

Additional observations from a re-analysis of the deposited data

Results flagged for a closer look

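Within the groups of 4, 1 library stood apart from the other 3 in 6 of 104 groups of named channel genes examined with Dixon's ratio (critical value 0.829); chance gives about 1 in 20. Kcnh2 was high in trastuzumab 15, at 4.89 CPM against 3.01 to 3.13 in the other 3 libraries of its group. Kcnk6 was low in the same library, at 12.8 CPM against 18.3 to 18.5. Kcnh3 was high in trastuzumab 20, at 56.6 CPM against 42.2 to 42.6. Cacna1c was high in trastuzumab 24, at 6.61 CPM against 2.74 to 3.32. Cacnb3 was low in panobinostat 7, at 128 CPM against 165 to 171. Kcnk13 was low in combination 22, at 6.70 CPM against 9.69 to 10.3.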

How the results depend on the processing

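No paired analysis was possible because every mouse number occurs once. The averaged effect of panobinostat gave 3 members with DESeq2, its size factors, limma voom or no filter, and 2 to 3 when 1 library was left out. It gave 4 with adipocyte content in the model, where Kcnj8 was added (log2 change -0.41). Panobinostat against vehicle gave 1 member, and 0 with limma voom, with the 2 groups alone and without vehicle 6 and combination 22; leaving out 1 library gave 0 to 1. The combination against vehicle gave 1 member, 3 with DESeq2, 0 with the groups alone, 2 without those 2 libraries, 4 with the adipocyte covariate, and 0 to 2 with 1 library left out. Panobinostat added to trastuzumab gave 1 member, 0 with limma voom, with the groups alone and without those 2 libraries, and 0 to 1 with 1 library left out. Trastuzumab averaged gave 0, and 1 with DESeq2. The other comparisons gave 0 throughout. Leaving out both libraries and the covariate were chosen after seeing the data. Causes were not tested.

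Among the named members, direction changed only for ones that did not pass. With the adipocyte covariate the log2 change of Cacna1h was 0.0233. Without the 2 libraries Kcnk6 had 0.0159 and Cacna1h 0.0246. With 1 library left out the log2 change ran from -0.20 to 0.0448 for Kcnh3, -0.37 to 0.0099 for Kcna3, -0.0961 to 0.0212 for Kcnk6, -0.26 to 0.0109 for Cacna1c, -0.0511 to 0.15 for Cacna1d and -0.19 to 0.11 for Cacna1h. Other changes that did not pass moved by over 1.5 times with 1 library left out: Scn9a ran from 0.14 to 0.68, Kcnab2 from 0.04 to 0.12, Kcnj2 from -0.33 to -0.14, Kcnj10 from -0.22 to -0.06, Kcnk13 from -0.27 to -0.14, Kcnma1 from -0.45 to -0.19 and Cacnb3 from -0.24 to -0.08. Over all genes, panobinostat against vehicle called 30, and 147 with DESeq2, 3 with limma voom, 58 with the groups alone and 224 with the covariate. The combination against vehicle called 343, and 525 with DESeq2, 127 with the groups alone, 133 without the 2 libraries and 755 with the covariate. Panobinostat added to trastuzumab called 98, and 219, 11, 5, 2 and 200 with DESeq2, limma voom, the groups alone, the 2 libraries left out and the covariate. The averaged panobinostat effect called 471, and 958 with the covariate. Members near 1 CPM rest on a few reads, which limits what could be detected.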
